A study of Homo sapiens with 12 samples.

Results

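The 2 ligands of the immune checkpoint receptor PD-1 and 7 genes of HLA class I antigen presentation were followed through an mRNA-seq experiment in HCC1806 cells, an established triple-negative breast cancer (TNBC) line. The genes were CD274 (PD-L1), PDCD1LG2 (PD-L2), HLA-B, HLA-C, HLA-E, B2M, TAP1, TAP2 and NLRC5. They were selected by symbol and role, with earlier results of these data known, and all 9 were found among the 17013 genes of the table. Cells had been transfected either with a non-targeting control siRNA (siNT) or with a pool of 4 siRNAs against MLK4 (siMLK4), a mixed-lineage kinase encoded by MAP3K21. A day later they received 1 μM doxorubicin, an anthracycline that poisons topoisomerase II and breaks DNA, for 24 h, or vehicle. The 4 groups are therefore siNT vehicle, siNT doxorubicin, siMLK4 vehicle and siMLK4 doxorubicin, each with 3 libraries. Every group was transfected, and all libraries come from 1 cell line. The vehicle is DMSO in the sample labels, while the study's methods call these cells untreated. Sample titles mark the vehicle libraries t0 and the doxorubicin libraries t24. A supplementary legend of the study describes these cells as given DMSO or doxorubicin, with a time of 24 h, which can be read as covering the vehicle too. If the vehicle cells were collected when the drug was added, the drug and the time in culture cannot be told apart in the doxorubicin contrasts. The transfections were made in triplicates. A general statement of the study says that experiments were repeated, but it is not said whether the libraries of a group come from separate cultures or days, so p-values measure the spread between these samples, which may be technical. Each library holds 16759025 to 19302248 reads assigned to the genes of the table. In bulk RNA, fewer cells of a type and less RNA per cell cannot be told apart.

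HLA class I molecules show peptides from inside the cell to CD8+ T cells. Proteasomes, including the interferon-inducible immunoproteasome, cut proteins into peptides, the TAP1-TAP2 transporter moves them into the endoplasmic reticulum, and there they are loaded on a heavy chain (HLA-B, HLA-C or HLA-E) paired with β2-microglobulin (B2M). NLRC5 is a transcriptional coactivator of most of these genes, which also respond to interferon through factors such as IRF1 and to NF-κB. PD-L1 and PD-L2 bind PD-1 on T cells and restrain them, and CD274 is itself an interferon-responsive gene.

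The siRNA label was checked first. In siNT cells, the MAP3K21 transcript stood at 553.1, 669.6 and 673.6 normalized reads with vehicle and at 757.6, 856.1 and 771.6 with doxorubicin. Knocked-down cells gave 103.2, 94.66 and 88.65 with vehicle and 112.8, 138.4 and 94.35 with doxorubicin. Normalized reads are reads divided by the size factor of the library. The knock-down left 15.1% of the siNT mean with vehicle and 14.5% with doxorubicin, and no siMLK4 library came near a siNT library. The 4 sense strands of the pool are shown because a siRNA can also lower transcripts through the 7 bases that pair with its seed. The capitals mark that stretch, and the first 19 bases of each strand match MAP3K21.
Sense strand of siMLK4 #1: ggaaagaugcuCAGAGAGauu
Sense strand of siMLK4 #2: aggagaagcccAAGGUAAauu
Sense strand of siMLK4 #3: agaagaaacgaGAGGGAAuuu
Sense strand of siMLK4 #4: agaacagauugCAAAGAAauu
The capital letters of at least 1 of the 4 strands (as DNA) were found in 44.3% of 13583 annotated 3′UTRs. The CD274 3′UTR of 2692 bases holds none of them. That of PDCD1LG2 (1323 bases) holds the stretch of siMLK4 #1 in 1 place, as do those of HLA-B (426 bases), HLA-C (420 bases) and HLA-E (1448 bases), and that of TAP2 (3491 bases) holds it in 1 place and the stretch of siMLK4 #4 in 2 places. B2M, TAP1 and NLRC5 hold none. A match is a description of the letters and was not tested as a site.

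Genes were tested with limma on the deposited log2-scale values, with 4 group means in 1 fit over all 12 libraries. A gene was called where its Benjamini-Hochberg adjusted p was below 0.01 and its log2 fold change was beyond 0.75 in either direction. Both limits are also those of the authors' own tests. Fold changes are on the variance-stabilized log2 scale, which understates changes of genes with few reads. Doxorubicin raised 4 of the 9 genes in siNT cells (CD274, HLA-B, HLA-E and TAP1), where 12.1% of all genes tested were called higher. It raised 5 of 9 in siMLK4 cells (these and HLA-C), where 12.6% were called higher. None of the 9 was called lower with doxorubicin in either arm, where 10.6% of genes were called lower in siNT cells and 10.6% in siMLK4 cells. The 9 genes had a median log2 fold change of 0.70 in the siNT and 0.85 in the siMLK4 arm, beside 0.00 and 0.02 over all genes. Knock-down lowered 1 of the 9 with vehicle, CD274, and 2 with doxorubicin, CD274 and PDCD1LG2, where 3.14% and 2.93% of all genes were called lower. With vehicle 5 of the 9 had an unadjusted p under 0.05, beside 37.0% of all genes. None of the 9 was called higher in siMLK4 than in siNT cells, against 2.51% of all genes with vehicle and 2.66% with doxorubicin. At an adjusted p under 0.05 with no fold threshold, 7 of the 9 passed for doxorubicin in siNT cells and 8 in siMLK4 cells, beside 57.3% and 57.9% of all genes, and 4 for siMLK4 with vehicle and 4 with doxorubicin, beside 25.8% and 24.8%. The median over the 9 was 0.05 for siMLK4 with vehicle and 0.06 with doxorubicin, beside 0.01 and 0.02 over all genes. Each of the 4 groups enters 2 of these comparisons, so the comparisons share samples and are not independent of each other.

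**Figure D1:**
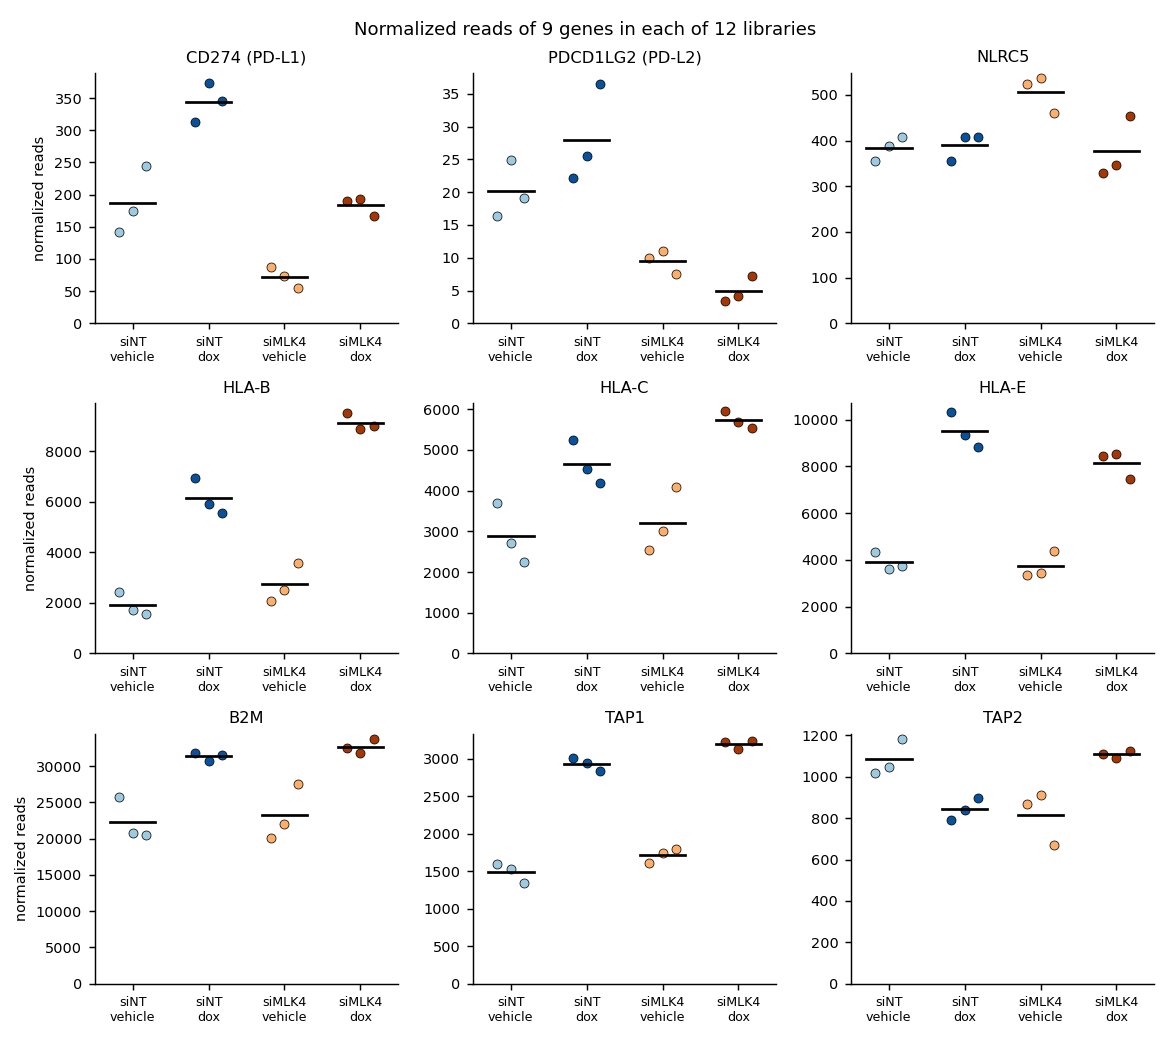
Normalized reads (y axis, linear, from 0) of the 9 genes in each of the 12 libraries; points are libraries in the order of their replicate number and horizontal lines are group means of 3 libraries. HLA-B rose with doxorubicin from a mean of 1917 to 6142 in the siNT arm and from 2732 to 9125 in the siMLK4 arm, while CD274 was lower in siMLK4 than in siNT cells with and without the drug.

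CD274 (ENSG00000120217, chr9:5450503-5470566, + strand) encodes PD-L1. Gene positions are those of GENCODE 44 on GRCh38, the build of the study's methods. The submitters' processing notes name hg19, and the table itself holds gene identifiers only. Its level in siNT cells was 142.1, 174.4 and 244.7 normalized reads with vehicle and 312.8, 372.6 and 344.7 with doxorubicin. In siMLK4 cells it had 88.17, 73.73 and 54.06 with vehicle and 189.9, 192.6 and 166.9 with doxorubicin. The 4 groups fall in 3 levels: siMLK4 vehicle lies lowest, siNT doxorubicin lies highest, and the siMLK4 doxorubicin libraries lie within the range of the siNT vehicle libraries. Doxorubicin raised the group mean 1.835-fold in siNT cells (log2 fold change 0.75, SE 0.16, limma adjusted p = 0.00092) and 2.54-fold in siMLK4 cells (0.97, SE 0.16, adjusted p = 0.00011). Knock-down left 38.5% of the siNT mean with vehicle (−0.98, SE 0.16, adjusted p = 0.00049) and 53.3% with doxorubicin (−0.76, SE 0.16, adjusted p = 0.003). The difference between the drug responses of the 2 arms was 0.22 (SE 0.22, adjusted p = 0.72), so a larger or smaller response in siMLK4 cells was not detected. The call with doxorubicin in siNT cells and the siMLK4 call with doxorubicin lie just past the fold threshold. The response in siNT cells was not called without siNT vehicle replicate 1 (0.61), without siNT vehicle replicate 2 (0.73), without siNT doxorubicin replicate 2 (0.70), without siNT doxorubicin replicate 3 (just under 0.75) or with TMM scaling (0.73), with an adjusted p of 0.0058 or lower each time. It was larger with limma-voom (1.15), library totals (0.95), log2 of normalized reads + 1 (0.91) and without siNT vehicle replicate 3 (0.92). Limma-voom also scales by library totals, and in these 2 settings the median of all genes was 0.25 and 0.18, against 0.00 in the main fit. The lower level in siMLK4 cells with doxorubicin was not called without siNT doxorubicin replicate 2 (−0.70) or 3 (−0.75), without siMLK4 doxorubicin replicate 1 (−0.78) or 3 (−0.70), or with TMM scaling (−0.74) or library totals (−0.69), with an adjusted p of 0.016 or lower each time. The lower level with vehicle was not called when only the groups compared entered the fit (−0.98, adjusted p = 0.016).

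The promoter of CD274 is shown because it carries words of the factors named above. Windows of 250 bases before the start site were taken from RefSeq (GRCh38.p14), which held 6 of the 9 genes, and searched on both strands for GAAA repeated after any 2 bases (interferon-stimulated response element, ISRE), TTC and GAA with any 3 bases between (gamma-activated site, GAS), GGGA and CC with any 4 bases between (κB), TGANTCA (AP-1) and CCAAT (NF-Y). These words occur in 3.02%, 6.56%, 22.6%, 6.57% and 32% of 35097 such windows, in that order. The CD274 window holds a pair of ISRE words that overlap each other, from −208 to −193 of the start site, a GAS word from −125 to −117 and a κB word from −20 to −11, with no overlap between different motifs, and no AP-1 or NF-Y word. Printed are the 211 bases that lie outside annotated exons, chr9:5450292-5450502 on the + strand, with ISRE and GAS words in capitals.
CD274: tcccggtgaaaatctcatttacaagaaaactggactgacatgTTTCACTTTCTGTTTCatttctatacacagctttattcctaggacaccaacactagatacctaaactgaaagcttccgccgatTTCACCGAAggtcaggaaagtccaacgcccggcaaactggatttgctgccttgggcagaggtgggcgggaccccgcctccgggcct
No binding was measured in this experiment, and a word is a description of letters only.

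PDCD1LG2 (ENSG00000197646, chr9:5510531-5571282, + strand) encodes PD-L2, the other ligand of PD-1, and lies next to CD274. It was the least abundant of the 9 genes, with 14, 24 and 17 reads in siNT cells with vehicle and 24, 25 and 36 with doxorubicin. The siMLK4 libraries had 10, 11 and 7 reads with vehicle and 4, 5 and 8 with doxorubicin. Every siMLK4 library held fewer reads than every siNT library. With doxorubicin, PDCD1LG2 was lower in siMLK4 than in siNT cells (17.6% of the siNT normalized mean, log2 fold change −0.80, SE 0.12, limma adjusted p = 0.00029), and this call was lost without siNT doxorubicin replicate 3 (−0.70). With vehicle it stood at 47.2% of the siNT mean, which was not called (−0.36, SE 0.12, adjusted p = 0.036). The drug response was 0.20 (SE 0.12, adjusted p = 0.17) in siNT cells and −0.24 (SE 0.12, adjusted p = 0.098) in siMLK4 cells, and the difference between them was not called (−0.44, SE 0.17, adjusted p = 0.23). The size of the siMLK4 difference depended on the scale: it was −2.36 with limma-voom on the recovered reads and −2.31 on log2 of normalized reads + 1. PDCD1LG2 does not reach 10 reads in all libraries, which 13295 genes do.

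The neighbours of the PD-1 ligand genes were looked at next. Of 7 other genes of the table within 500 kb of CD274, PLGRKT, a plasminogen receptor gene, was the only one called with doxorubicin in siNT cells (0.78, SE 0.15, limma adjusted p = 0.00068), where 12.1% of all genes were called higher. None of the 6 neighbours beside PDCD1LG2 was called for siMLK4, where 2.51 to 3.14% of all genes were called in each direction. JAK2, the kinase that signals from the interferon-γ receptor, gave 0.38 (SE 0.13, adjusted p = 0.027) in siNT cells and −0.37 (SE 0.13, adjusted p = 0.061) for siMLK4 with doxorubicin. The long non-coding RNA ENSG00000286162 runs antisense over part of CD274 and over the whole of PDCD1LG2. It had a mean of 24.2 normalized reads in siNT vehicle and 42.2 in siNT doxorubicin (0.38, SE 0.14, adjusted p = 0.031), with no call in any contrast. Reads were counted by strand, per the study's methods.

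HLA-B (ENSG00000234745, chr6:31353872-31367067, − strand) encodes a classical heavy chain that presents peptides to CD8+ T cells. It had 2435, 1734 and 1582 normalized reads with vehicle and 6965, 5909 and 5552 with doxorubicin in siNT cells. In siMLK4 cells it had 2097, 2512 and 3588 with vehicle and 9504, 8881 and 8991 with doxorubicin. All doxorubicin libraries lay above all vehicle libraries, and the siMLK4 doxorubicin libraries lay above the siNT doxorubicin libraries without overlap. The drug raised it 3.2-fold in siNT cells (log2 fold change 1.67, SE 0.18, limma adjusted p = 4.6e-06) and 3.34-fold in siMLK4 cells (1.75, SE 0.18, adjusted p = 3.1e-06), the largest responses among the 9 genes in both arms. The difference of the responses was 0.08 (SE 0.26, adjusted p = 0.93). HLA-B was 148.6% of the siNT mean in siMLK4 cells with doxorubicin, which missed the fold threshold (0.57, SE 0.18, adjusted p = 0.034), and 142.5% with vehicle (0.49, SE 0.18, adjusted p = 0.064).

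HLA-C (ENSG00000204525, chr6:31268749-31272130, − strand), the classical heavy chain that killer cell receptors also read, had 3701, 2724 and 2259 normalized reads with vehicle and 5256, 4542 and 4187 with doxorubicin in siNT cells. The siMLK4 libraries had 2547, 3000 and 4089 with vehicle and 5959, 5688 and 5545 with doxorubicin. The drug and vehicle libraries of each arm did not overlap, but their distance was smaller than for HLA-B. In siNT cells HLA-C stood 1.61-fold higher with the drug and missed the fold threshold (0.70, SE 0.18, limma adjusted p = 0.0043). It was past both thresholds with library totals (0.94), with limma-voom (0.95), without siNT vehicle replicate 1 (0.89) and without siNT doxorubicin replicate 3 (0.77). Limma-voom also scales by library totals. In these 2 settings the median of all genes was 0.18 and 0.25 for this contrast, against 0.00 in the main fit. In siMLK4 cells HLA-C rose 1.78-fold (0.85, SE 0.18, adjusted p = 0.0011), a call that was lost without siMLK4 vehicle replicate 1 (0.70). The difference between the arms was 0.15 (SE 0.25, adjusted p = 0.86), so the call in 1 arm alone is no difference between them.

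HLA-E (ENSG00000204592, chr6:30489509-30494194, + strand) encodes a non-classical heavy chain that shows leader peptides of other class I chains to NKG2A receptors of natural killer cells. It had 4359, 3626 and 3746 normalized reads with vehicle and 10346, 9334 and 8839 with doxorubicin in siNT cells. The siMLK4 libraries had 3370, 3460 and 4390 with vehicle and 8456, 8545 and 7450 with doxorubicin. HLA-E rose 2.43-fold in siNT cells (1.27, SE 0.12, limma adjusted p = 1.7e-06) and 2.18-fold in siMLK4 cells (1.12, SE 0.12, adjusted p = 5.2e-06). With doxorubicin its siMLK4 libraries lay below the siNT libraries, the opposite order to HLA-B and HLA-C, but no siMLK4 contrast of HLA-E was called (−0.22, SE 0.12, adjusted p = 0.22 with doxorubicin). Reads of class I genes can be split between near-identical copies. Of the 50-base stretches of their transcripts, 2.2% of HLA-B, 5.5% of HLA-C and 5.2% of HLA-E occur in other genes elsewhere in the genome. For HLA-B the share is 30.5% once the genes that overlap it, DHFRP2 and MIR6891, are counted, and how the counting placed such reads was not tested. With the reads of the 3 genes added to 1 feature, doxorubicin gave 1.22 in siNT cells (limma adjusted p = 1.8e-05) and was called in both arms, and siMLK4 gave 0.14 and 0.18 with no call.

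B2M (ENSG00000166710, chr15:44711358-44718851, + strand) encodes the light chain shared by all class I molecules. It had 25792, 20762 and 20491 normalized reads with vehicle and 31819, 30721 and 31605 with doxorubicin in siNT cells. The siMLK4 libraries had 20116, 22078 and 27531 with vehicle and 32450, 31756 and 33802 with doxorubicin. The drug libraries lay above the vehicle libraries of their arm, at 1.4-fold the mean in siNT and 1.41-fold in siMLK4 cells, which was under the fold threshold (0.50, SE 0.13, limma adjusted p = 0.0058, and 0.50, SE 0.13, adjusted p = 0.0053). Knock-down gave 0.05 with vehicle and 0.06 with doxorubicin (SE 0.13 each, adjusted p = 0.81 and 0.79). Per kilobase of exon, B2M was the most abundant of the 9 genes with 8783 normalized reads over all libraries, followed by HLA-E (2165), HLA-C (1645), HLA-B (1077) and TAP1 (492.4). TAP2 (93.01), CD274 (47.81), NLRC5 (33.44) and PDCD1LG2 (6.439) followed at lower levels. These are means over groups that differ, and the order turned within some: per kilobase, CD274 (17.52) stood below NLRC5 (40.92) in siMLK4 vehicle and next to TAP2 in siNT doxorubicin (83.59 against 81.39).

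The vehicle libraries of each arm were not alike for the heavy chains and B2M. Replicate 1 of siNT vehicle and replicate 3 of siMLK4 vehicle were the highest of their groups for HLA-B, HLA-C, HLA-E and B2M. Those libraries were also the lowest of their groups for CD274. Within a library the ratio of HLA-B to HLA-C was much steadier than either level. It was 0.665 ± 0.0325 (SD, n = 3) in siNT vehicle and 1.32 ± 0.0142 (SD, n = 3) in siNT doxorubicin. In siMLK4 cells it was 0.846 ± 0.0282 (SD, n = 3) with vehicle and 1.59 ± 0.0296 (SD, n = 3) with doxorubicin. No library of 1 group fell in the range of another group for this ratio, which is given as a description with no test. HLA-B made up 20.8 to 23.2% of the reads of HLA-B, HLA-C and HLA-E together in siNT vehicle, 29.9 to 30.9% in siNT doxorubicin, 26.2 to 29.7% in siMLK4 vehicle and 38.4 to 40.9% in siMLK4 doxorubicin.

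**Figure D2:**
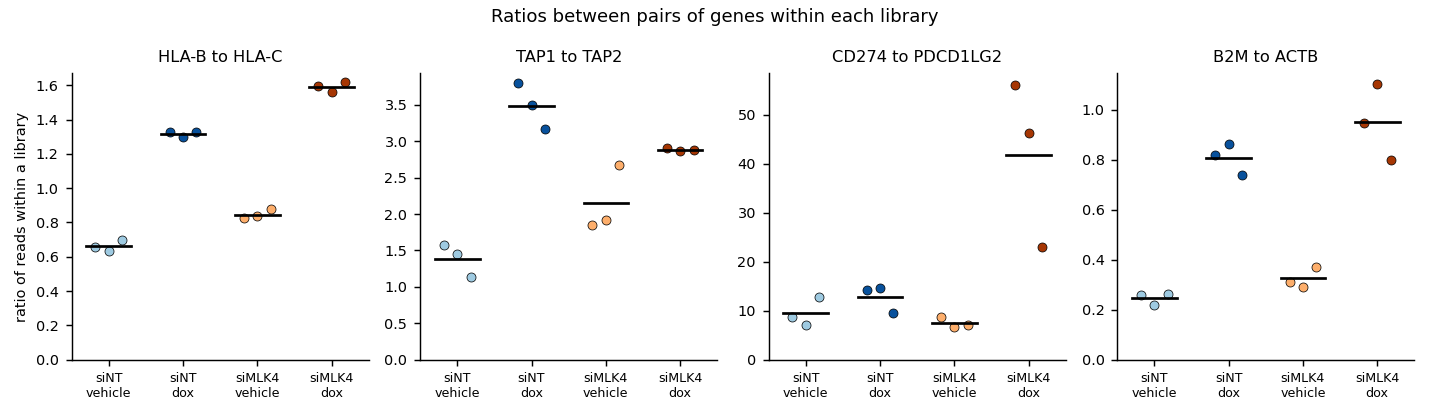
Ratio of reads between 4 pairs of genes within each library (y axis, linear, from 0), with points for libraries and lines for the means of 3. HLA-B to HLA-C separated all 4 groups, from a mean of 0.665 in siNT vehicle to 1.59 in siMLK4 doxorubicin, and B2M to ACTB was higher in all doxorubicin libraries.

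TAP1 and TAP2 encode the 2 subunits of the peptide transporter and lie close together on chromosome 6. TAP1 (ENSG00000168394, chr6:32845209-32853816, − strand) had 1600, 1528 and 1338 normalized reads with vehicle and 3008, 2946 and 2837 with doxorubicin in siNT cells. The siMLK4 libraries had 1604, 1745 and 1795 with vehicle and 3226, 3131 and 3238 with doxorubicin. TAP1 showed little spread and the drug libraries were far above the vehicle libraries in both arms. It rose 1.97-fold in siNT cells (0.96, SE 0.10, limma adjusted p = 2.2e-06) and 1.87-fold in siMLK4 cells (0.88, SE 0.10, adjusted p = 4.5e-06), with a difference of −0.07 between the arms. The call held in each of the 12 fits that leave out a library, with fold changes from 0.88 to 1.01 in the siNT arm and from 0.83 to 0.91 in the siMLK4 arm.

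The TAP1 promoter is shown beside that of CD274 because it also holds overlapping ISRE words, from −134 to −119 of its upstream start site. It has κB words from −237 to −228 and from −72 to −63, an NF-Y word from −249 to −245 and no AP-1 or GAS word. The window of a second RefSeq start site of TAP1, downstream of the first, holds a GAS word, TTCTGGGAA, from −189 to −181. The 138 bases outside annotated exons are chr6:32853817-32853954 on the − strand, with ISRE and κB words in capitals.
TAP1: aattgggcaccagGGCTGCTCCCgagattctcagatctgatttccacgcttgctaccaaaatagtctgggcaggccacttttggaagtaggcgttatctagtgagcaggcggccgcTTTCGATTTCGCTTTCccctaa
Overlapping ISRE words also stand in the B2M window, the first reading GAAAAGGAAA and the second GAAACTGAAA from −144 to −129. TAP2 has 1 ISRE word, GAAAGCGAAA, from −58 to −49. HLA-B and HLA-C have no ISRE word in these windows. Only the exact form given above was searched, so an element that departs from it would be missed. HLA-B and HLA-C each hold 2 κB words. Those of HLA-B overlap each other on opposite strands, from −177 to −168 and, as GGGATTCCCC, from −176 to −167. Those of HLA-C lie apart, from −188 to −179 and, as GGGATTCTCC, from −172 to −163.

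TAP2 (ENSG00000204267, chr6:32821833-32838739, − strand) did not follow TAP1. It had 1020, 1049 and 1183 normalized reads with vehicle and 791.8, 841.8 and 895.3 with doxorubicin in siNT cells. In siMLK4 cells the order was the opposite, with 868.7, 911.7 and 671.4 with vehicle and 1110, 1091 and 1126 with doxorubicin. The drug and vehicle libraries did not overlap in either arm. The drug gave a log2 fold change of −0.34 (SE 0.12, limma adjusted p = 0.021) in siNT cells and, in siMLK4 cells, of 0.43 (SE 0.12, adjusted p = 0.0058), neither of them past the fold threshold. The difference of the responses was 0.77 (SE 0.16, adjusted p = 0.036), which missed the threshold of 0.01. At an adjusted p under 0.05, the difference of the responses was positive in 0.576% and of either sign in 1.20% of all genes, and at the thresholds of the study it was called higher in 0.0999% and lower in 0.176%. None of the 9 genes was called, and TAP2 was the only one of the 9 under 0.05. At an unadjusted p under 0.05 stood PDCD1LG2, TAP2 and NLRC5, where 14.5% of all genes did. The adjusted p of TAP2 with the replicate number as a block was 0.055. The ratio of TAP1 to TAP2 within a library was 1.385 ± 0.227 (SD, n = 3) in siNT vehicle, 3.49 ± 0.316 in siNT doxorubicin, 2.145 ± 0.459 in siMLK4 vehicle and 2.885 ± 0.0195 in siMLK4 doxorubicin. A readthrough transcript, ENSG00000250264, overlaps TAP2 and shares 50-base stretches with it. Stretches shared with that transcript or with TAP1 make up 18.5% of those of TAP2, and only 0.3% lie in genes that do not overlap it.

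Next to TAP1 lie 6 other genes of the table within 100 kb. PSMB9, an immunoproteasome subunit whose start site lies beside that of TAP1 on the other strand, gave 0.67 (SE 0.18, limma adjusted p = 0.0052) in siNT cells and 0.71 (SE 0.18, adjusted p = 0.0037) in siMLK4 cells, both under the fold threshold. Its means were 369.4 and 615.2 normalized reads without and with the drug in siNT cells and 525.6 and 875.8 in siMLK4 cells. PSMB8, another immunoproteasome subunit, gave 0.25 (SE 0.21) and 0.26 (SE 0.21). The antisense transcript PSMB8-AS1 was called in siMLK4 cells (0.94, SE 0.12, adjusted p = 2.2e-05) and not in siNT cells (0.69, SE 0.12, adjusted p = 0.00031), with no call for the difference (0.25, SE 0.17, adjusted p = 0.57). Of the class II genes there, HLA-DOB fell in siMLK4 cells (−0.77, SE 0.12, adjusted p = 8.8e-05), from a mean of 45.85 to 13.52 normalized reads. It gave −0.13 (SE 0.12) in siNT cells, and the difference was not called (−0.64, SE 0.17, adjusted p = 0.081). HLA-DMA was higher in siMLK4 than in siNT cells with vehicle (1.13, SE 0.18, adjusted p = 0.00055) and gave 0.37 (SE 0.18, adjusted p = 0.16) with doxorubicin, with no call for the difference (−0.76, SE 0.26, adjusted p = 0.18).

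NLRC5 (ENSG00000140853, chr16:56989485-57083531, + strand), the coactivator of class I promoters, had 354.6, 387.2 and 408.6 normalized reads with vehicle and 355.3, 407.2 and 408.6 with doxorubicin in siNT cells. The siMLK4 libraries had 524, 537.1 and 459.5 with vehicle and 328.2, 346.9 and 453.6 with doxorubicin. The siNT groups overlapped throughout, and the siMLK4 vehicle libraries lay above all others. None of its contrasts was called: 0.02 (SE 0.12, limma adjusted p = 0.89) for doxorubicin in siNT cells, −0.39 (SE 0.12, adjusted p = 0.013) in siMLK4 cells, 0.36 (SE 0.12, adjusted p = 0.044) for knock-down with vehicle and −0.06 (SE 0.12, adjusted p = 0.78) with doxorubicin. The difference of the responses was −0.42 (SE 0.17, adjusted p = 0.28). HLA-B, HLA-E and TAP1 rose in siNT cells while NLRC5 stayed at 390.4 against 383.5 normalized reads on average.

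**Figure D3:**
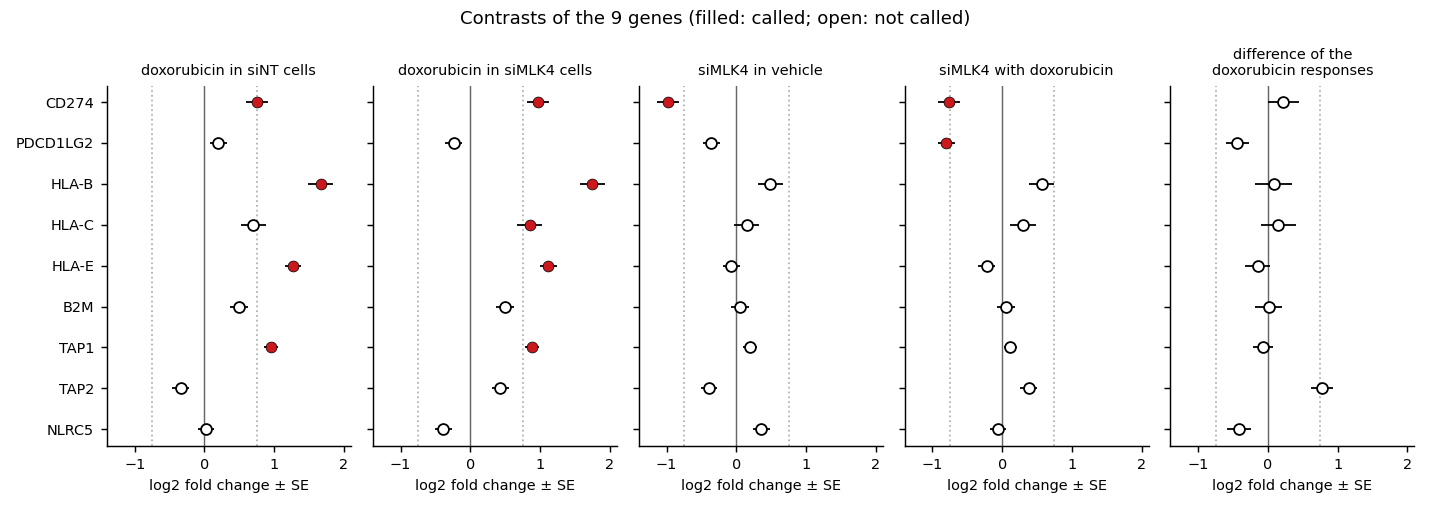
Log2 fold changes with standard errors (x axis, variance-stabilized scale) of the 9 genes in the 4 contrasts and in the difference of the doxorubicin responses; filled points passed both thresholds, open points did not, and dotted lines mark ±0.75. Doxorubicin moved HLA-B, HLA-E, TAP1 and CD274 up in both arms, and knock-down moved CD274 down with and without the drug.

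Of 18 listed transcription factors of class I genes, all measured, 3 rose with doxorubicin in siNT cells and 4 in siMLK4 cells, and none fell, where 12.1% and 12.6% of all genes rose and 10.6% fell in each arm. The medians were −0.04 and −0.01, beside 0.00 and 0.02 over all genes, so the list as a whole stood near the background. IRF1, which binds ISRE words and drives CD274 and class I genes downstream of interferon, rose from a mean of 362.7 to 955.7 normalized reads in siNT cells (1.30, SE 0.13, limma adjusted p = 1.6e-06) and from 425.4 to 1077 in siMLK4 cells (1.24, SE 0.13, adjusted p = 2.3e-06). IRF3, which responds to cytosolic nucleic acids, rose by 1.16 and 1.25 (SE 0.18 each), and STAT2, a part of the type I interferon complex ISGF3, rose by 0.92 and 0.79 (SE 0.10 each). IRF7 rose in siMLK4 cells (1.04, SE 0.19, adjusted p = 0.00037) and was not called in siNT cells (0.56, SE 0.19, adjusted p = 0.022), and the difference between the arms was not called (0.48, SE 0.27, adjusted p = 0.46). No factor was called for siMLK4 with either treatment, where 2.51 to 3.14% of all genes were called in each direction, also not IRF1, which gave 0.22 (SE 0.13) with vehicle and 0.17 (SE 0.13) with doxorubicin. STAT2 stood below the fold threshold there (0.62, SE 0.10, adjusted p = 0.00067 with vehicle, and 0.49, SE 0.10, adjusted p = 0.0033 with doxorubicin).

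Of 17 listed genes of interferon-γ and JAK-STAT signalling, 14 were measured. With doxorubicin 1 rose and 1 fell in each arm, no more than over all genes (12.1% and 12.6% higher, 10.6% lower in each arm). SOCS3, a feedback inhibitor of cytokine receptors, rose in both arms (0.91 and 0.79, SE 0.11 each). GBP1, an interferon-induced GTPase, fell in siNT cells (−0.96, SE 0.23, limma adjusted p = 0.0028) and GBP2, its relative, fell in siMLK4 cells (−1.09, SE 0.22, adjusted p = 0.00068). In the other arm GBP1 gave −0.67 (SE 0.23, adjusted p = 0.022) and GBP2 −0.28 (SE 0.22, adjusted p = 0.28), and the difference between the arms was not called for GBP1 (adjusted p = 0.77) or GBP2 (adjusted p = 0.22). With vehicle, GBP2 (1.05, SE 0.22, adjusted p = 0.003) and SOCS1, the feedback inhibitor of JAK kinases (0.76, SE 0.15, adjusted p = 0.0022), were higher in siMLK4 cells, where 2.51% of all genes were called higher. Both of these calls were lost when only the groups compared entered the fit. The level of SOCS1 was low, with means of 14.66 normalized reads in siNT vehicle and 46.32 in siMLK4 vehicle. With doxorubicin no gene of the list was called for siMLK4, where 2.66% of all genes were called higher and 2.93% lower. GBP2 gave 0.24 (SE 0.22, adjusted p = 0.45) there and SOCS1 0.58 (SE 0.15, adjusted p = 0.012). The difference between treatments was not called for GBP2 (adjusted p = 0.22) or SOCS1 (adjusted p = 0.77). The GBP1 call was lost in 5 alternatives, limma-voom among them, and that of SOCS3 in siMLK4 cells without siMLK4 vehicle replicate 3.

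Of 20 genes for peptide supply and loading, all measured, 1 rose and 2 fell with doxorubicin in each arm, no more than over all genes (12.1% and 12.6% higher, 10.6% lower in each arm), and the medians were 0.02 and 0.09. PSMB10, the third immunoproteasome subunit, rose by 1.09 in siNT cells (SE 0.11, limma adjusted p = 2.9e-06) and by 1.02 in siMLK4 cells (SE 0.11, adjusted p = 5.3e-06). Its level was low, with a mean of 22.99 normalized reads in siNT vehicle and 92.47 in siNT doxorubicin. CALR, the calreticulin chaperone of the loading complex, fell by 1.45 and by 1.49 on the log2 scale (SE 0.12 each), and HSPA5, the BiP chaperone of the endoplasmic reticulum, fell by 1.57 and by 1.61 (SE 0.15 each). Both are general chaperones of the endoplasmic reticulum. With knock-down, LNPEP, an aminopeptidase of endosomal cross-presentation, fell with vehicle (−0.94, SE 0.20, adjusted p = 0.0037), a call lost in 7 alternatives, among them limma-voom and the fit of the groups compared. With doxorubicin LNPEP gave −0.57 (SE 0.20, adjusted p = 0.051). LAP3, a leucine aminopeptidase, fell with doxorubicin (−0.87, SE 0.11, adjusted p = 8.6e-05) and stood lower with vehicle under the fold threshold (−0.61, SE 0.11, adjusted p = 0.0012). The difference between treatments was not called for LNPEP (adjusted p = 0.62) or LAP3 (adjusted p = 0.48).

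Class I relatives and ligands of the NKG2D receptor of natural killer cells formed a list of 18 genes, of which 17 were measured. With doxorubicin, 6 rose and 1 fell in siNT cells, and 5 rose and 0 fell in siMLK4 cells (median 0.57 and 0.51), where 12.1% and 12.6% of all genes rose and 10.6% fell in each arm, while 0 were called for siMLK4 with either treatment, where 2.51 to 3.14% of all genes were called in each direction. The stress ligand ULBP2 averaged 277 normalized reads in siNT vehicle and 1158 with the drug (1.86, SE 0.15, limma adjusted p = 2.7e-07), against 253.8 and 1099 after knock-down (1.91, SE 0.15, adjusted p = 2.6e-07). MICB rose by 1.63 and 1.92 (SE 0.16 each) and ULBP1 by 1.52 and 1.87 (SE 0.25 each). Chosen after their values were seen, 3 further genes of the list are given here. The NKG2D ligand RAET1E fell in siNT cells (−1.14, adjusted p = 8.6e-05), the only lower call of the list, and with the filter of 10 reads the list holds no lower call. HLA-F, a non-classical heavy chain, rose in siNT cells (1.00, adjusted p = 0.00024). Neither was called in siMLK4 cells, and the difference between the arms was called for no gene of the list. The pseudogene HLA-H rose in both arms (1.07 and 0.88), with reads that may belong to other class I genes.

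Of 29 other checkpoint ligands and regulators of PD-L1 stability, 26 were measured, and 0 rose and 7 fell with doxorubicin in siNT cells, and 0 rose and 8 fell in siMLK4 cells, where 12.1% and 12.6% of all genes rose and 10.6% fell in each arm. The medians were −0.32 and −0.38, beside 0.00 and 0.02 over all genes. LGALS9, the galectin that binds TIM-3, fell from a mean of 59.22 to 5.908 normalized reads in the siNT arm (−1.29, SE 0.14, limma adjusted p = 3.6e-06) and from 56.36 to 6.012 in the siMLK4 arm (−1.25, SE 0.14, adjusted p = 4.5e-06). The butyrophilins BTN3A1 (−1.16 and −1.04, SE 0.17 each) and BTN3A3 (−0.95 and −0.93, SE 0.11 each), which γδ T cells sense, fell in both arms, although BTN3A3 was not called in siNT cells with library totals. VSIR, the VISTA checkpoint gene, gave −0.79 and −1.35 (SE 0.20 each), and its call in siNT cells was lost in 6 alternatives, limma-voom among them. STUB1, a ubiquitin ligase that can act on PD-L1, fell by 1.63 in siNT cells (SE 0.22, adjusted p = 2.4e-05) and by 0.78 in siMLK4 cells (SE 0.22, adjusted p = 0.0066), where the call was lost in 8 alternatives, among them the replicate block and the omission of any siMLK4 doxorubicin library. CMTM6, which keeps PD-L1 protein at the cell surface, was under the fold threshold at −0.70 and −0.65 (SE 0.10 each, adjusted p = 3.4e-05 and 6.4e-05). With knock-down, NT5E (CD73), which makes immunosuppressive adenosine, was lower with vehicle (−1.73, SE 0.15, adjusted p = 3.9e-06) and with doxorubicin (−1.44, SE 0.15, adjusted p = 2.4e-05), from 2372 to 691.9 and from 2099 to 740.5 normalized reads. VTCN1 (B7-H4) was higher with vehicle (0.93, SE 0.20, adjusted p = 0.0041), a call lost in 5 alternatives, among them the fit of the 2 groups alone. Its level was low, with means of 12.74 normalized reads in siNT vehicle and 54.64 in siMLK4 vehicle. With doxorubicin VTCN1 gave 0.05 (SE 0.20, adjusted p = 0.89), and the difference was not called (−0.89, SE 0.29, adjusted p = 0.15). For siMLK4 the list held no call beside those of NT5E and VTCN1, where 2.51 to 3.14% of all genes were called in each direction.

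**Figure D4:**
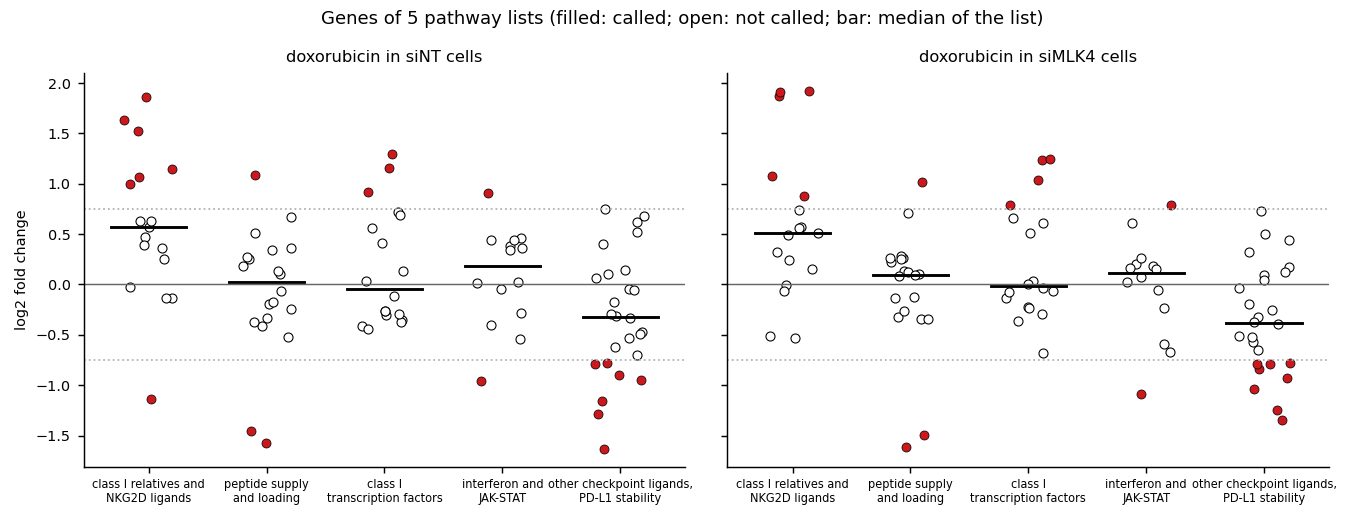
Log2 fold changes with doxorubicin (y axis, variance-stabilized scale) of the measured genes of 5 lists, in siNT cells on the left and siMLK4 cells on the right; filled points passed both thresholds, bars are list medians and dotted lines mark ±0.75. NKG2D ligands and class I relatives had a median of 0.57 and 0.51, and other checkpoint ligands of −0.32 and −0.38.

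The genes with the pattern most like that of CD274 over the 12 libraries were sought among 10548 genes with a mean of at least 100 normalized reads, by Pearson's r of the log2-scale values, given as a description. RASSF8 (r = 0.989), KARS1 (0.980), PCSK6 (0.979), VPS37A (0.974) and KCTD12 (0.973) came first. RASSF8 shared all 4 calls of CD274, with 1.09 and 1.25 for doxorubicin and −1.31 and −1.16 for siMLK4 (SE 0.18 each). For HLA-B the first were TINF2 (0.996), SURF1 (0.995), H2AJ (0.994), GINM1 (0.993) and SPINT1 (0.993), and none of these is a class I gene. H2AJ rose by 1.94 and 1.79 with doxorubicin (SE 0.19 each). All points of these comparisons share the 12 libraries and the 4 groups.

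B2M also served the study as a reference transcript for quantitative PCR, together with actin. Cells with siNT showed 100449, 94617 and 77472 normalized reads of ACTB (ENSG00000075624) with vehicle and 38809, 35578 and 42701 with doxorubicin. It had 64763, 75524 and 74049 in siMLK4 vehicle and 34255, 28838 and 42371 in siMLK4 doxorubicin. ACTB fell with doxorubicin (−1.21, SE 0.16, limma adjusted p = 2e-05 in siNT cells, and −1.04, SE 0.16, adjusted p = 7.6e-05 in siMLK4 cells), while B2M was under the fold threshold on the other side. Within a library the ratio of B2M to ACTB was 0.247 ± 0.0241 (SD, n = 3) in siNT vehicle and 0.808 ± 0.0626 in siNT doxorubicin. It was 0.325 ± 0.0416 in siMLK4 vehicle and 0.949 ± 0.152 in siMLK4 doxorubicin, so the 2 reference transcripts moved apart.

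The label of a breast epithelial line without hormone receptors was checked against markers. All 9 basal epithelial markers were measured, with a summed level of 32811 to 80782 normalized reads per library, led by KRT5. Of these, TP63, KRT6A, EGFR, KRT14 and KRT5 fell with doxorubicin in each arm (list median −1.24 and −1.20), where 10.6% of all genes fell and the medians over all genes were 0.00 and 0.02. KRT6A and KRT14 were lower in siMLK4 cells with vehicle, and these and KRT17 with doxorubicin, where the KRT17 call was lost in 4 alternatives. The 6 luminal and receptor markers were measured at a sum of 3054 to 5503, led by the transcription factor GATA3, with PGR at 0 reads in all vehicle libraries and ESR1 at a mean of 92.72 normalized reads in siNT vehicle. ERBB2 (HER2) had means of 1459 in siNT vehicle, 1588 in siNT doxorubicin, 1893 in siMLK4 vehicle and 1853 in siMLK4 doxorubicin. HER2 status was not tested. PGR was called higher with doxorubicin in both arms, at means of 13.27 and 11.66 normalized reads, and ESR1 fell in siMLK4 cells (−0.78, SE 0.17, limma adjusted p = 0.0014), a call lost in 4 alternatives. Of 12 immune cell markers, 3 were in the table, with sums of 23.48 to 65.04 and CD14 as the highest. The other immune markers, among them CD3E, CD8A and NKG7, were not analysed here. Of 8 stromal and endothelial markers, 4 were in the table at sums of 310.5 to 891.9, led by COL1A1. LUM, a stromal proteoglycan, fell in both arms (−1.56 and −2.05, SE 0.15 each), and COL1A1 was higher in siMLK4 cells with vehicle (0.78, SE 0.12, adjusted p = 0.00041), a call lost without replicate 3 of either vehicle group. PTPRC, the leukocyte gene CD45, went from a mean of 5.479 to 20.28 normalized reads with doxorubicin in siNT cells (0.59, SE 0.14, limma adjusted p = 0.0027) and from 1.745 to 17.86 in siMLK4 cells (0.84, SE 0.14, adjusted p = 0.00018; not called without siMLK4 vehicle replicate 1), levels far under those of the class I genes. CD4 stood the other way in both arms, at means of 12.57 and 2.344 normalized reads without and with the drug in siNT cells and 13.35 and 1.488 in siMLK4 cells, with no call. CD14 had 11.42 and 25.02 in siNT cells and 26.82 and 36.87 in siMLK4 cells, also with no call. The part of these markers in the class I and PD-L1 values was not tested.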

How the data were processed

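Per the study's methods, reads were trimmed with Trimmomatic, aligned with HISAT2, freed of optical duplicates and counted by strand. The submitters' processing notes also name HTSeq 0.6.0 and DESeq2 1.26.0, and give the Trimmomatic version as 0.39. The deposited values, 1 column for each of the 12 libraries, are on a log2 scale, and their form is that of variance-stabilized counts, which was read from the values. The sources disagree on the genome build (GRCh38 in the methods, hg19 in the processing notes). Reads were recovered from these values (all came out whole within 0.05 reads), divided by size factors of 0.852 to 1.199 and used for the levels printed. No other column was used.

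Contrasts were fitted with limma 3.58.1 (R 4.3.3, trended empirical Bayes) on the deposited log2 values of all 17013 genes, with group means and no replicate block, and adjusted over all genes by Benjamini-Hochberg; the fit was tested on simulated data. The count test was limma-voom on the recovered reads. Levels, ratios and promoter words were computed with Python 3.11.15, pandas 2.3.3 and numpy 2.4.6. Depth was 16759025 to 19302248 reads per library, and replicates differed by more than counting noise (chi-square per degree of freedom 7.03 to 64.07).

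Deviations from the group mean were correlated between same-numbered libraries. The correlation was over 0.1 in every pair for doxorubicin in siNT cells (0.46, 0.11 and 0.20) and for siMLK4 with doxorubicin (0.19, 0.52 and 0.56). It was not in every pair for doxorubicin in siMLK4 cells (−0.08, 0.18 and 0.34) or siMLK4 with vehicle (−0.72, 0.32 and −0.52). Libraries of different numbers were not compared, so these values cannot show whether the numbers mark pairs. The pairing comes from the numbers in the sample titles alone.

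By rule, the genes named were the 9 genes, MAP3K21, B2M and ACTB, up to 4 called genes of each list per contrast, PSMB9, IRF1, JAK2 and CMTM6, the neighbours of CD274 (500 kb) and TAP1 (100 kb) and the 5 genes most like CD274 and HLA-B. Outside this rule, THOP1 was named for its difference of the responses, and RAET1E, HLA-F and HLA-H after their values were seen. Other names outside it are further cell markers, such as CD4, CD14 and GATA3, and transcripts that overlap HLA-B or TAP2. The 9 genes and the lists were chosen with earlier results of these data known. Some genes that this rule selects are not reported here.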

Additional observations from a re-analysis of the deposited data

Results flagged for a closer look

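The difference between the doxorubicin responses of siNT and siMLK4 cells had a limma adjusted p under 0.05 for TAP2, THOP1 and KRT5, as for 1.20% of all genes. None of the 3 passed the threshold of 0.01. They are shown because of this value, so 3 is not a count over a fixed set, and THOP1 was not named before. Over 19 alternatives the adjusted p stayed under 0.05 in 8 for TAP2, 8 for THOP1 and 6 for KRT5, and reached 0.11, 0.13 and 0.13. TAP2, a subunit of the peptide transporter, had a difference of 0.77 on the log2 scale (SE 0.16, adjusted p = 0.036), with a mean of 1084 against 843 normalized reads without and with the drug in siNT cells and 817.2 against 1109 in siMLK4 cells. THOP1, a cytosolic endopeptidase that trims or destroys antigenic peptides, also had 0.77 (SE 0.16, adjusted p = 0.036). It gave −0.52 (SE 0.12, adjusted p = 0.0016) in siNT cells and 0.25 (SE 0.12, adjusted p = 0.083) in siMLK4 cells, with means of 1255 and 857.6 normalized reads in siNT cells and 1136.5 and 1354 in siMLK4 cells. KRT5, a basal keratin, had −0.96 (SE 0.22, adjusted p = 0.047). It fell in both arms, by 1.24 in siNT cells and by 2.20 in siMLK4 cells, from 20878 to 8817 and from 32257 to 7035 normalized reads. With library totals the adjusted p was 0.057 for TAP2, 0.056 for THOP1 and 0.034 for KRT5, and with limma-voom 0.069, 0.068 and 0.038. The sign was the same in all 19 alternatives for each gene, with values of 0.64 to 0.85 for TAP2, 0.69 to 0.86 for THOP1 and −1.07 to −0.83 for KRT5.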

How the results depend on the processing

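With an adjusted p under 0.05 and no fold threshold, 7 of the 9 genes passed for doxorubicin in siNT cells, 8 in siMLK4 cells, 4 for siMLK4 with vehicle, 4 with doxorubicin and 1 (TAP2) for the difference of the responses, beside 57.3%, 57.9%, 25.8%, 24.8% and 1.20% of all genes. For siMLK4 with vehicle, 0 of the 9 were called by limma with only the groups compared in the fit (CD274 −0.98, adjusted p = 0.016), while 5 had an unadjusted p under 0.05 in the fit of all groups (37.0% of all genes did) and CD274 was called by limma-voom. For siMLK4 with doxorubicin the count was 1 with TMM scaling, with library totals and with the filter of 10 reads, which removes PDCD1LG2, and 0 to 2 when a library was left out: 0 without siNT doxorubicin replicate 3, and 1 without siNT doxorubicin replicate 2, siMLK4 doxorubicin replicate 1 or siMLK4 doxorubicin replicate 3. With the replicate block no call of the 9 genes changed (4, 5, 1, 2 and 0 called; CD274 in siNT cells 0.75, adjusted p = 0.0023).

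With each gene's own reads, signs changed only for values near 0 that were called in no setting. NLRC5 with doxorubicin in siNT cells was −0.01 with TMM scaling and −0.03 to 0.08 with a library left out, and for siMLK4 with doxorubicin 0.02 with library totals, 0.02 with limma-voom and −0.18 to 0.02 with a library left out. For siMLK4 with vehicle, HLA-E was 0.07 with library totals, 0.07 with limma-voom, 0.14 with the reads of the 3 HLA genes summed and −0.19 to 0.01 with a library left out, HLA-C −0.04 to 0.34 and B2M −0.08 to 0.16. The summed reads of the 3 HLA genes are a different quantity from HLA-E. That sum gave 0.14 for siMLK4 with vehicle and 0.18 with doxorubicin, where HLA-E itself was −0.07 and −0.22. The difference of the responses was −0.10 to 0.30 for HLA-B and −0.04 to 0.34 for HLA-C with a library left out. For B2M it was −0.05 with library totals, −0.05 with limma-voom and −0.10 to 0.13 with a library left out. The summed reads of the 3 HLA genes gave a difference of 0.04, against −0.15 for HLA-E itself. The cause was not tested. TAP2's difference of the responses was 0.64 to 0.85 with a library left out, with an adjusted p up to 0.11.

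Library totals moved the median of all genes by 0.18 and 0.16 for doxorubicin and by 0.11 for siMLK4 with vehicle, and limma-voom by 0.25, 0.21 and 0.16. Over all genes, 961 were called for siMLK4 with vehicle, against 611 with only the groups compared, 1661 with limma-voom and 1613 on log2 of normalized reads + 1, and 950 against 1503 with limma-voom for siMLK4 with doxorubicin. For the difference of the responses, 47 were called, 24 with limma-voom and 0 to 37 with a library left out (0 without siMLK4 doxorubicin replicate 1). Of 63 called results of 34 other named genes, 49 held in every alternative, 14 were lost in at least 1 and 0 changed sign. Among those lost were STUB1 in siMLK4 cells (8 alternatives, the replicate block included), LNPEP (7), VSIR in siNT cells (6) and GBP1 (5). Variance stabilization compresses low counts, which limits what genes such as PDCD1LG2, PSMB10, SOCS1 and VTCN1 can show.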
